A study of Mus musculus with 14 samples.

Results

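Expression was examined here for 10 genes of tissue macrophages, complement C1q and the class II molecules of the major histocompatibility complex (MHC) in sorted mouse heart muscle cells. The genes are Lyz2, Csf1r, Emr1, C1qa, C1qb, C1qc, Cd74, H2-Aa, H2-Ab1 and H2-Eb1, where Emr1 is the count table's symbol for Adgre1. They were chosen by symbol as macrophage and antigen presentation genes, with earlier results of these data known. All 10 were found among the 23337 genes of the table, and all 10 were among the 11170 genes that had enough reads to be tested. The mice, of the line Rosa-Cas9GFP, hold the nuclease Cas9 with GFP at Rosa and were injected with adeno-associated virus (AAV) on postnatal day 1. The virus of the KO group was AAV-Ryr2gRNA, whose name gives a guide RNA to Ryr2, the calcium release channel of heart muscle. That of the Ctrl group was AAV-Cre, whose name gives the Cre recombinase. Cardiomyocytes were obtained at 4 weeks of age by Langendorff perfusion and fluorescence-activated sorting, with 7 libraries in each group. The sources used here do not state whether AAV-Ryr2gRNA also held Cre, which cells made Cas9, or how the sort was gated. The 2 groups received different vectors, and an effect of the vector cannot be told apart from one of the guide. No label says that libraries of a group are from different mice, and p-values therefore cover only the spread between libraries, some of which may be technical.

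Macrophages live in the healthy heart among the muscle cells, where they clear debris, and their numbers and state change after injury. They depend on the receptor Csf1r for survival, digest bacterial walls with lysozyme (Lyz2), and carry the adhesion receptor Emr1, known as F4/80, on their surface. C1qa, C1qb and C1qc encode the 3 chains of C1q, the molecule that starts the classical complement pathway, and tissue macrophages are a main source of it. H2-Aa and H2-Ab1 encode the alpha and beta chains of I-A, H2-Eb1 encodes the beta chain of I-E, and the invariant chain Cd74 guides these class II molecules to the compartment where they load peptides. Cardiomyocytes are not known for any of these functions.

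Class II genes are switched on through shared promoter elements, an X box and a Y box, while the macrophage factor PU.1 binds purine-rich sequences near many macrophage genes. RefSeq promoter windows (GRCm38.p6, the same assembly as mm10) were matched by symbol for 5 of the 10 genes, Lyz2, C1qb, C1qc, H2-Aa and H2-Eb1, and the 250 bases before the start site were searched on both strands. The X box core GCAAC followed by the Y box core ATTGG on the same strand, with 20 to 40 bases between them, was found in H2-Aa and H2-Eb1 and in 0.843% of 32851 promoter windows. H2-Aa had the X core at -81 to -77 and the Y core at -48 to -44 from the start site, and H2-Eb1 at -91 to -87 and -59 to -55, with 28 and 27 bases between them. The PU.1 core GAGGAA was found in C1qb (-30 to -25) and, on the other strand, in C1qc (-193 to -188), and in 23.3% of all windows. The windows of H2-Aa, H2-Eb1 and C1qb are shown, 150 bases before each start site, because the 2 class II genes rose and share the pair of boxes, while C1qb rose and no such pair was found there. Capitals mark the X and Y cores in the class II genes and the PU.1 core in C1qb.
H2-Aa (chr17:34287824-34287973, minus strand): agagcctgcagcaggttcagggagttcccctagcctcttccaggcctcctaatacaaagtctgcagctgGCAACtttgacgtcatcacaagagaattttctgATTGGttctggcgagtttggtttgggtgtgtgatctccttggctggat
H2-Eb1 (chr17:34305717-34305866, plus strand): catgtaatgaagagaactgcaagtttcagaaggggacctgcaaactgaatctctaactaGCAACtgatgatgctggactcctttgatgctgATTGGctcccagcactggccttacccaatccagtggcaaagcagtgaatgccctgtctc
C1qb (chr4:136886201-136886350, minus strand): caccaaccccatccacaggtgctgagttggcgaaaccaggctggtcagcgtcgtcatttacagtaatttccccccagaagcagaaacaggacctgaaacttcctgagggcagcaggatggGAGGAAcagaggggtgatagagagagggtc

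The libraries held between 5689335 and 13165662 counted reads. The targeted gene Ryr2 was lower in every KO library (225 to 371 CPM, the counts scaled to a common library size) than in any Ctrl library (602 to 763 CPM), and its log2 fold change, KO minus Ctrl, was -1.13 (SE 0.0977, adjusted p = 3.3e-07). Control replicates 4 and 5 and KO replicates 4 and 5, which carry library indices 7 to 10, stood apart from the other 10 libraries on the second principal component (24.2% of the variance). The labels name no batch for these 4 libraries. Values are therefore also given within them (2 against 2) and within the other 10 libraries (5 against 5). Cardiomyocyte markers were abundant: 10 of them (among them Myh6, Tnnt2 and Ttn, and Ryr2 itself) summed to between 112118 and 131592 CPM in Ctrl and between 89019 and 118218 CPM in KO libraries. Of these 10 markers 7 were called lower in KO (median log2 fold change of the 10, -0.30), against 13.7% of all genes. Within indices 7 to 10 also 7 were called lower, against 777 of 11798 genes tested. Among the other 10 libraries 7 were called lower, against 1284 of 11044 genes tested. The 10 macrophage, C1q and class II genes summed to between 26.4 and 113 CPM in Ctrl libraries (median 40.4) and between 70.4 and 448 CPM in KO libraries (median 101). In bulk samples more macrophages, more RNA per macrophage and expression by other cells cannot be told apart.

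All 10 genes had a higher mean in KO libraries, and 7 of them passed the test: Lyz2, Emr1, C1qb, Cd74, H2-Aa, H2-Ab1 and H2-Eb1. Of all 11170 genes tested, 14.5% were called higher (edgeR quasi-likelihood test, Benjamini-Hochberg adjusted p under 0.05). The median log2 fold change was 1.46 over the 10 genes and 0.01 over all genes tested. The 3 that missed the threshold were C1qa, C1qc and Csf1r. Among the other 10 libraries 8 of the 10 were called higher, all but Csf1r and H2-Aa, against 12.5% of all genes, and the median of the 10 was 1.15. Within library indices 7 to 10 all 10 were called higher, against 5.84% of all genes, and the median was 1.72. All 10 had both KO libraries above both Ctrl libraries there, as did 29.1% of all genes, and in the other 10 libraries Lyz2 and Cd74 had every KO library above every Ctrl library, as did 9.02%. A fit of the 14 libraries with a term for those 4 libraries also called all 10 higher, against 16.9% of all genes.

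**Figure D1:**
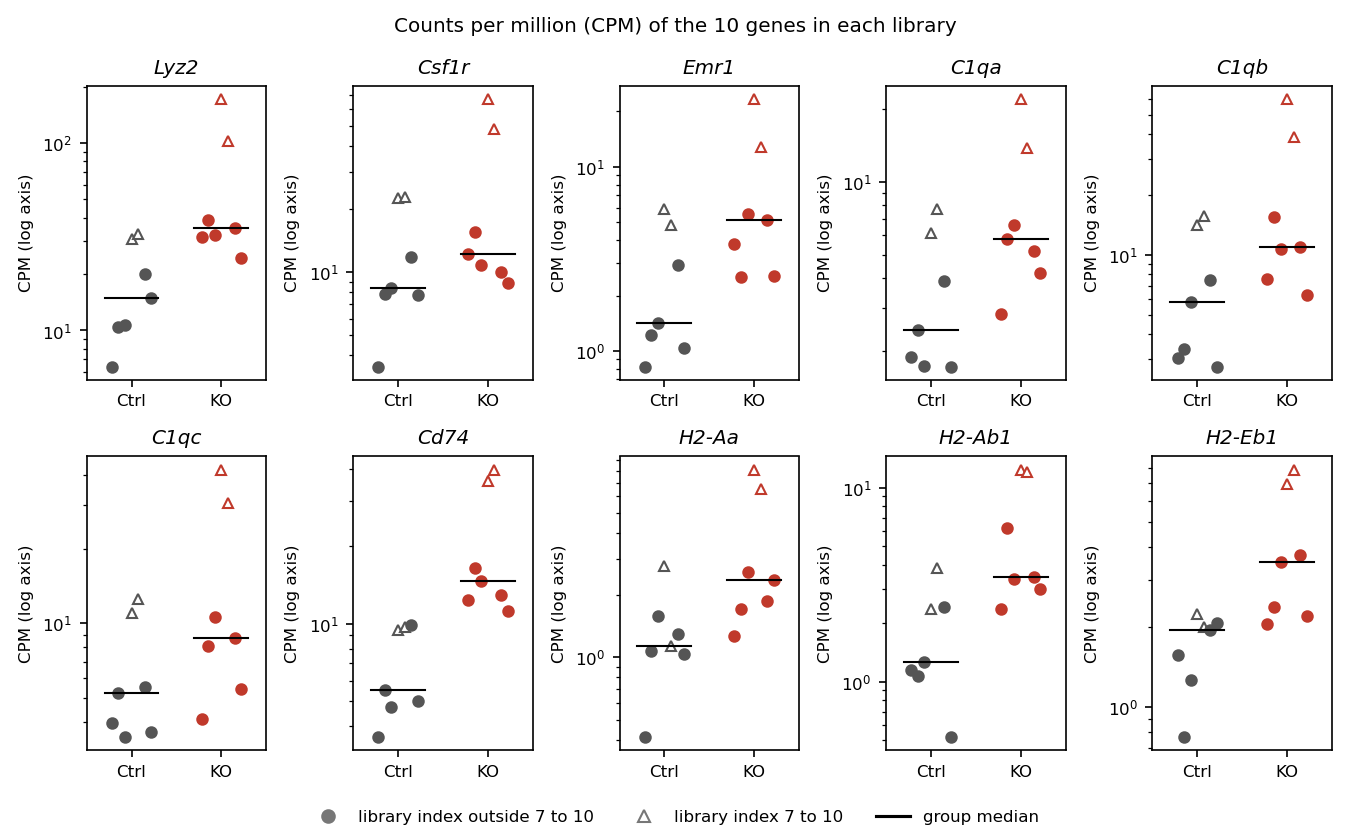
CPM of each gene (vertical log axis) in the 7 Ctrl and 7 KO libraries, one point per library, with the group median as a line and open triangles for library indices 7 to 10. In both groups the triangles lie high for most genes, and Cd74 is the gene whose 7 KO points (11.2 to 39.6 CPM) all lie above its 7 Ctrl points (3.62 to 9.91 CPM).

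Among the macrophage identity genes, lysozyme and F4/80 rose and the receptor Csf1r did not pass. Lyz2 (chromosome 10, 117277541 to 117282272, minus strand, mm10) ranged from 6.42 to 32.6 CPM in Ctrl libraries (median 14.8) and from 24.2 to 171 CPM in KO libraries (median 35.3). The groups overlapped through Ctrl replicates 4 and 5, the Ctrl libraries among indices 7 to 10, whereas among the other 10 libraries every KO library was above every Ctrl library. Its mean was 17.95 ± 10.3 CPM in Ctrl and 62.2 ± 54.7 CPM in KO libraries (SD, n = 7 each), with a log2 fold change of 1.79 (SE 0.469, adjusted p = 0.0085). It was 1.41 among the other 10 libraries (adjusted p = 5.4e-04) and 2.06 within indices 7 to 10 (adjusted p = 1.6e-04). Lyz1, a near-identical neighbour of Lyz2 looked up for that reason, had 2 counts in Ctrl and 11 in KO libraries in all, against 886 and 3178 for Lyz2. Reads that the copies share make the split between them uncertain.

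Emr1 (chromosome 17, 57358686 to 57483529, plus strand) ranged from 0.823 to 5.90 CPM in Ctrl libraries (median 1.42) and from 2.51 to 23.3 CPM in KO libraries (median 5.17). The 2 highest KO values, in replicates 4 and 5, were the only ones above the highest Ctrl library. Its log2 fold change was 1.60 (SE 0.559, adjusted p = 0.042), with 1.43 in the other 10 libraries (adjusted p = 0.0093) and 1.68 in the set of indices 7 to 10 (adjusted p = 0.0042). The call was lost on leaving out Ctrl replicate 1, 2, 3, 6 or 7 or KO replicate 4 or 5 (adjusted p = 0.061 to 0.12). Csf1r (chromosome 18, 61105572 to 61131139, plus strand), the receptor for colony-stimulating factor 1, ranged from 3.54 to 22.8 CPM in Ctrl (median 8.36) and from 8.87 to 66.8 CPM in KO libraries (median 12.2). Its groups overlapped widely, and its log2 fold change of 1.02 (SE 0.510) had an adjusted p of 0.15. Among the other 10 libraries its log2 fold change was 0.58 (adjusted p = 0.11), and within indices 7 to 10 it was 1.29 (adjusted p = 7.9e-04).

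The 3 C1q genes lie side by side on chromosome 4 (C1qb at 136880145 to 136886177, C1qc at 136889802 to 136892914 and C1qa at 136895916 to 136898844, all on the minus strand). C1qb rose, and C1qa and C1qc missed the threshold in the 14 libraries. C1qa ranged from 1.73 to 7.69 CPM in Ctrl (median 2.45) and from 2.84 to 21.8 CPM in KO libraries (median 5.82), with a log2 fold change of 1.23 (SE 0.458, adjusted p = 0.055). C1qb ranged from 2.76 to 15.7 CPM (median 5.83) and from 6.32 to 59.8 CPM (median 10.9), with a log2 fold change of 1.51 (SE 0.537, adjusted p = 0.045). C1qc ranged from 3.47 to 12.5 CPM (median 5.21) and from 4.10 to 41.8 CPM (median 8.76), with a log2 fold change of 1.26 (SE 0.497, adjusted p = 0.070). For each chain the KO libraries above the highest Ctrl library were replicates 4 and 5 and no others. The call of C1qb was lost on leaving out the same 7 libraries as for Emr1 (adjusted p = 0.070 to 0.13). Among the other 10 libraries C1qa, C1qb and C1qc were all called, with log2 fold changes of 1.09, 1.20 and 0.76 (adjusted p = 0.010, 0.0092 and 0.036), and within indices 7 to 10 they were 1.31, 1.68 and 1.57 (adjusted p = 0.0069, 5.7e-04 and 5.0e-04).

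All 4 class II genes rose. Cd74, the invariant chain (chromosome 18, 60803849 to 60812652, plus strand), ranged from 3.62 to 9.91 CPM in Ctrl libraries (median 5.52) and from 11.2 to 39.6 CPM in KO libraries (median 14.6). It was the 1 gene of the 10 in which every KO library was above every Ctrl library, a separation met by 5.84% of all genes tested. Its mean was 6.84 ± 2.71 CPM in Ctrl and 20.4 ± 12.01 CPM in KO libraries (SD, n = 7 each), with a log2 fold change of 1.59 (SE 0.334, adjusted p = 0.0018). The exact permutation test (two-sided, 3432 assignments) gave p = 0.00058, which is its lower limit. Without adjustment, such tests gave p between 0.0029 and 0.047 for 7 others of the 10 genes, 0.11 for C1qc and 0.18 for Csf1r.

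The chains themselves were scarce. H2-Ab1 (chromosome 17, 34263227 to 34269418, plus strand) ranged from 0.518 to 3.84 CPM in Ctrl (median 1.26) and from 2.37 to 12.3 CPM in KO libraries (median 3.45), with a log2 fold change of 1.75 (SE 0.450, adjusted p = 0.0077). H2-Aa (chromosome 17, 34282751 to 34287771, minus strand) ranged from 0.411 to 2.75 CPM (median 1.14) and from 1.26 to 8.07 CPM (median 2.37), with a log2 fold change of 1.40 (SE 0.456, adjusted p = 0.029). H2-Eb1 (chromosome 17, 34305867 to 34316674, plus strand) ranged from 0.767 to 2.23 CPM (median 1.95) and from 2.05 to 7.85 CPM (median 3.52), with a log2 fold change of 1.26 (SE 0.338, adjusted p = 0.0097). In H2-Ab1, H2-Aa and H2-Eb1, 3, 2 and 5 of the 7 KO libraries were above the highest Ctrl library. These values rest on 3 to 100 reads per library, so single libraries are imprecise. The call of H2-Aa was lost among the other 10 libraries (log2 0.97, adjusted p = 0.051) and on leaving out Ctrl replicate 1, 2 or 7 or KO replicate 4 or 5 (adjusted p = 0.053 to 0.072). Among the other 10 libraries the log2 fold changes of Cd74, H2-Ab1 and H2-Eb1 were 1.26, 1.51 and 0.86 (adjusted p = 9.3e-04, 0.0059 and 0.042).

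**Figure D2:**
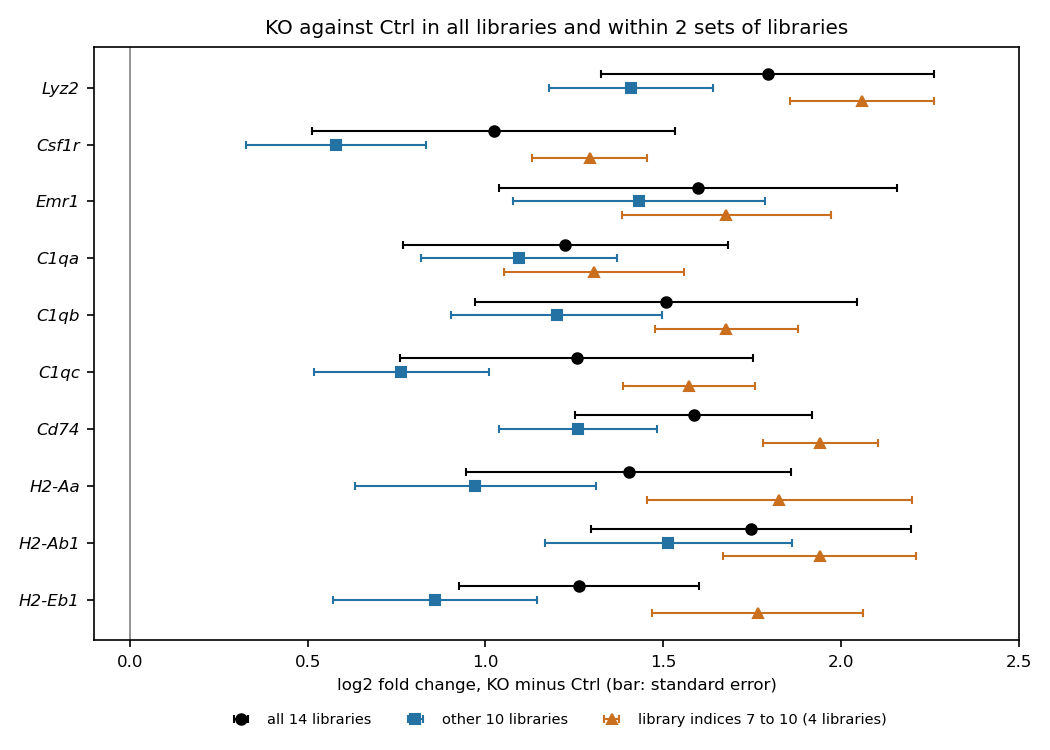
Log2 fold change, KO minus Ctrl, of each gene (horizontal axis, bars are standard errors) in all 14 libraries, within library indices 7 to 10 and in the other 10 libraries. Every estimate lies above 0, from 0.58 for Csf1r among the other 10 libraries to 2.06 for Lyz2 within indices 7 to 10.

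The 4 libraries with indices 7 to 10 had more of these transcripts in both groups. The 10 genes summed to 110 ± 3.94 CPM in the 2 Ctrl libraries of that set and 42.7 ± 14.9 CPM in the other 5 Ctrl libraries, a ratio of 2.58, and to 380 ± 95.9 and 92.3 ± 17.0 CPM in the 2 and 5 KO libraries, a ratio of 4.12 (SD over libraries). The ratio of KO to Ctrl means was 2.16 among the other 10 libraries and 3.46 within the set. Single genes followed the same order, with a larger ratio within indices 7 to 10 than among the other 10 libraries for each of the 10 genes. A test of the difference itself, a group by set interaction added after the data were seen, called none of the 10 genes and 0 of 11170 genes (edgeR). Without adjustment 1 of the 10 genes, C1qc, had p under 0.05 (0.038), as did 3.03% of all genes.

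Levels were compared between genes only per kilobase of exonic length. In Ctrl libraries Lyz2 was the highest of the 10 at 17.0 ± 9.71 CPM per kb, above the next gene, C1qb (7.02 ± 5.03), in 7 of 7 libraries. C1qb and C1qc (6.14 ± 3.53) did not differ beyond their spread, C1qb being higher in 4 of 7 libraries. Cd74 followed at 4.84 ± 1.92, with C1qc above it in 4 of 7. C1qa (3.37 ± 2.22) and Csf1r (3.12 ± 1.96) were also overlapped, with C1qa higher in 4 of 7. H2-Ab1 (1.51 ± 0.954), H2-Aa (1.24 ± 0.675), H2-Eb1 (1.01 ± 0.314) and Emr1 (0.800 ± 0.628) were the lowest, and neighbours among these also overlapped (SD, n = 7). In KO libraries Lyz2 stood at 58.8 ± 51.8 CPM per kb and was again above C1qb (20.1 ± 19.0) in 7 of 7 libraries. Cd74 (14.4 ± 8.49) had a mean near that of C1qc (14.8 ± 13.8) there, but C1qc was above Cd74 in only 2 of 7 libraries.

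Ratios within a library do not depend on its total. The summed class II genes (Cd74, H2-Aa, H2-Ab1 and H2-Eb1) were 0.464 to 1.06 times the summed C1q genes in Ctrl libraries (median 0.764) and 0.513 to 1.24 times in KO libraries (median 0.884). These ranges overlapped, and the lowest ratios of both groups were in libraries with indices 7 to 10. The ratio of Lyz2 to Csf1r ranged from 1.28 to 1.91 in Ctrl libraries (median 1.43) and from 2.12 to 3.51 in KO libraries (median 2.60), so that the groups did not overlap. It was singled out after 7 such ratios had been seen and was not tested. A higher ratio shows unequal change of the 2 genes, not which of them changed. C1qc relative to C1qa ranged from 1.42 to 2.13 in Ctrl and from 1.29 to 2.23 in KO libraries and overlapped.

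**Figure D3:**
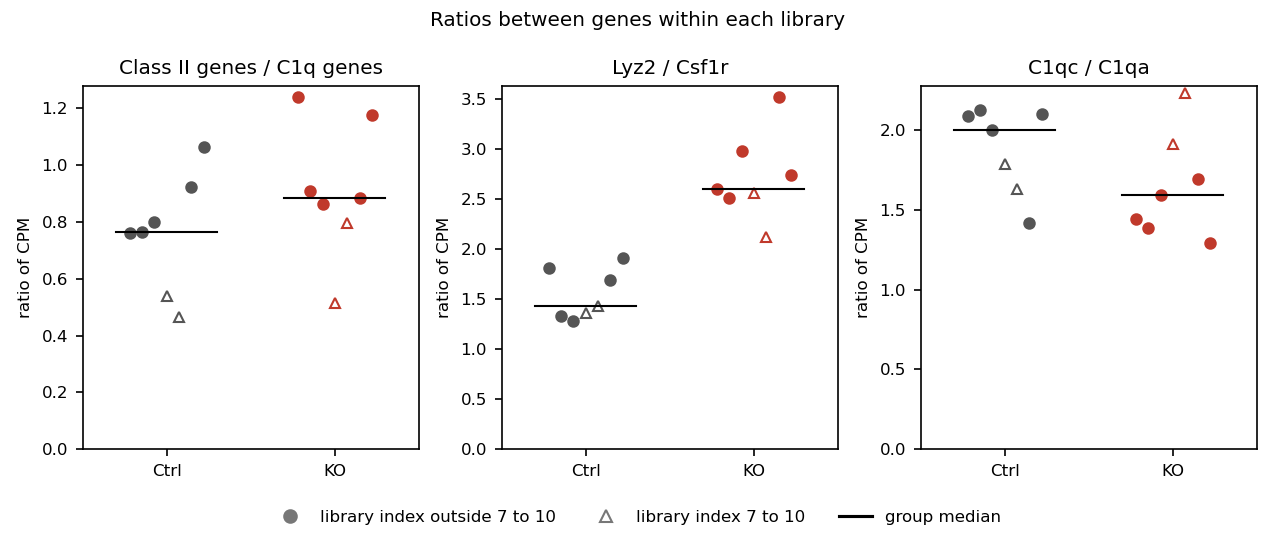
Ratios of CPM within each library (vertical axes, from 0) for class II genes over C1q genes, Lyz2 over Csf1r, and C1qc over C1qa, with group medians as lines and open triangles for library indices 7 to 10. The Lyz2 to Csf1r ratios are at most 1.91 in Ctrl and at least 2.12 in KO libraries, and the other ratios overlap.

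Further genes of the macrophage program were measured beside the 10. Of 41 further macrophage genes with counts, 20 could be tested, and 4 were called higher and 1 lower, against 14.5% and 13.7% of all genes. Their median log2 fold change was 1.06. The galectin Lgals3, which other stressed cells also express, had a mean of 0.403 ± 0.311 CPM in Ctrl and 13.3 ± 6.01 CPM in KO libraries (SD, n = 7) and rose by 5.02 on the log2 scale (SE 0.406, adjusted p = 1.5e-07). The cathepsin Ctsz (log2 1.11), the activation marker Cd83 (1.42) and the leukocyte tetraspanin Cd53 (1.55) also rose, and the lower gene was the cathepsin Ctsc (-0.53). Ctsz and Ctsc are lysosomal proteases of many cell types. Laptm5, Fcgr3, Mrc1 and Cx3cr1 had log2 fold changes between 1.18 and 1.32 and did not pass (adjusted p = 0.053 to 0.13). With a term for library indices 7 to 10 the count was 14 higher and 1 lower of the same 20, where 1891 and 1761 of all 11170 genes were. Among the other 10 libraries 7 of 13 tested were higher and 1 lower, against 12.5% and 11.6% of all genes. Cd68 stood at 1.18 ± 0.634 and 2.54 ± 2.90 CPM (adjusted p = 0.17), and Ptprc (CD45) and Fcgr1 were too low to be tested, with 67 and 14 counts in Ctrl and 113 and 32 in KO libraries in all.

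In the class II pathway beyond the 4 genes, 9 of 19 genes could be tested, and 3 were called higher (14.5% of all genes) and 1 lower (13.7%), with a median log2 fold change of -0.09. The protease Ctss, which trims the invariant chain, rose from 2.51 to 8.71 CPM (log2 1.78, SE 0.476, adjusted p = 0.0096). Of the factors that bind the X and Y boxes, Rfx5 rose from 5.05 to 10.1 CPM (log2 1.0, SE 0.155, adjusted p = 1.4e-04) with every KO library above every Ctrl library, Nfya rose (0.65), and Rfxap fell by 0.27 on the log2 scale. Nfyb, Nfyc, Rfxank and Creb1 did not pass, with log2 fold changes between -0.22 and -0.09, nor did Lgmn (0.06). Ciita, the coactivator that class II transcription requires, had 22 counts in all Ctrl libraries and 17 in all KO libraries and was not tested. The accessory chains H2-DMa, H2-DMb1, H2-DMb2, H2-Oa and H2-Ob were also too low to be tested. In all Ctrl and all KO libraries H2-DMa had 31 and 67 counts, and H2-DMb1 had 11 and 30. H2-DMb2 had 1 and 2, H2-Oa 0 and 1, and H2-Ob 6 and 3.

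In the MHC class I pathway 16 of 21 genes could be tested, and 4 were called higher and 1 lower, against 14.5% and 13.7% of all genes, with a median of 0.25. The heavy chain H2-K1 (log2 1.09), its partner B2m (1.0), the peptide transporter subunit Tap1 (1.0) and tapasin, Tapbp (0.31), rose, and the proteasome activator subunit Psme1 fell by 0.72. Most nucleated cells express class I genes. In the rest of the complement system 13 of 23 genes could be tested, and 3 were called higher and 0 lower, where 14.5% and 13.7% of all genes were, with a median of 0.55. They were the lectin pathway protease Masp1 (0.86), the anaphylatoxin receptor C3ar1 of myeloid cells (1.77) and the regulator Cd59a (0.22). C1s, a protease that acts with C1q, had a log2 fold change of 0.42 (adjusted p = 0.36), and C3, the central component, one of 0.64 (adjusted p = 0.34).

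Among growth factors and chemokines that act on macrophages 6 of 27 genes could be tested, and 1 was called higher (14.5% of all genes) and 0 lower (13.7%). It was Cx3cl1, the ligand of Cx3cr1, which went from 6.97 to 13.6 CPM (log2 0.97, SE 0.131, adjusted p = 3.6e-05) with every KO library above every Ctrl library. Csf1, a ligand of Csf1r, stood at 76.3 and 101 CPM with a log2 fold change of 0.40 that did not pass (adjusted p = 0.11). Il34, the other ligand, and 20 more genes were too low to be tested.

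**Figure D4:**
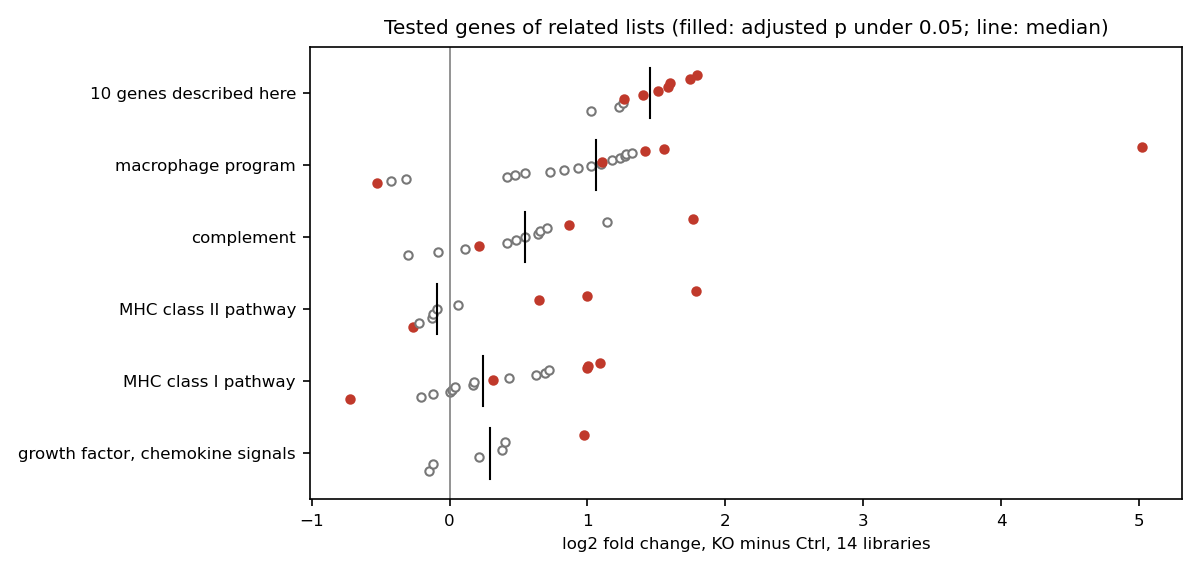
Log2 fold change, KO minus Ctrl, in the 14 libraries (horizontal axis) of each tested gene of 6 gene groups, filled where the adjusted p was under 0.05, with the group median as a line. The 10 genes described here lie between 1.02 and 1.79, and the class II pathway genes beyond them have a median of -0.09.

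Markers of other cell types of the heart were measured in the same libraries. RNA of those cells and expression of the same genes by cardiomyocytes cannot be told apart here. The 12 endothelial markers summed to 406 to 1068 CPM in Ctrl libraries (median 598) and 331 to 1180 CPM in KO libraries (median 440). Of the 12, 0 were called higher and 0 lower, where 14.5% and 13.7% of all genes were. Among the other 10 libraries 4 of the 12 endothelial markers were called lower, against 11.6% of all genes, and 0 higher. Pecam1 stood at 67.3 ± 25.1 and 65.5 ± 34.9 CPM (adjusted p = 0.93). The 10 fibroblast markers summed to 306 to 909 CPM in Ctrl (median 379) and 236 to 1776 CPM in KO libraries (median 477). In the 14 libraries 0 of 9 tested were called higher and 0 lower, against 14.5% and 13.7% of all genes. With the term for library indices 7 to 10, 5 of the 9 were called higher, against 16.9% of all genes. Within those indices 7 of 10 were called higher, against 5.84%, and among the other 10 libraries 0 of 8, against 12.5%. Col1a1, a collagen of fibroblasts, stood at 31.1 ± 20.4 and 61.1 ± 59.2 CPM (log2 0.96, adjusted p = 0.19). With the term the estimate was 0.75 (adjusted p = 0.0042), and it was 1.22 within indices 7 to 10 (adjusted p = 7.4e-05) and 0.49 among the other 10 libraries (adjusted p = 0.12). Within indices 7 to 10 fibroblast markers and the 10 genes were thus both higher in KO. The pericyte and smooth muscle list summed to 1007 to 1320 CPM in Ctrl and 1429 to 2276 CPM in KO libraries, with 3 of 10 called higher (Acta2, Cspg4 and Tagln), against 14.5% of all genes, 1 lower (Abcc9), against 13.7%, and Pdgfrb not called.

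Endothelial and fibroblast sums were also higher in libraries with indices 7 to 10. In Ctrl they were 1.70 and 2.53 times those of the other 5 libraries, and in KO 2.59 and 4.21 times. The KO to Ctrl ratios of these sums were 0.73 and 1.14 among the other 10 libraries and 1.11 and 1.89 within indices 7 to 10, where the 10 macrophage, C1q and class II genes had 2.16 and 3.46. The part of RNA carried over from other cells in these differences was not tested.

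Lists of other leukocytes differed in level. The neutrophil list (7 genes in the table) summed to at most 0.262 CPM in Ctrl and 1.27 CPM in KO libraries. Its mean sum was 0.116 ± 0.117 CPM in Ctrl and 0.470 ± 0.415 CPM in KO libraries (SD, n = 7 each), and 0 of its genes could be tested. Retnlg and Elane were at 0 in every library, and S100a8 had 2 counts in all Ctrl libraries and 0 in KO. The B cell list (6 genes) summed to at most 1.28 and 1.09 CPM, with 13 and 2 counts of Cd79a. The T and NK cell list (9 genes) summed to at most 3.42 and 1.42 CPM, with 6 and 0 counts of Cd3e. The dendritic cell markers summed to 9.49 to 13.8 and 8.62 to 18.8 CPM, nearly all from Zbtb46, which endothelium also expresses, while Flt3 had 1 and 3 counts. The 6 monocyte markers summed to 9.15 to 43.5 CPM in Ctrl and 13.4 to 63.7 CPM in KO libraries, with sums in indices 7 to 10 that were 2.87 and 2.94 times those of the other libraries. Fn1 (20.6 and 26.9 CPM) and Vcan (2.43 and 3.18 CPM), matrix genes that fibroblasts also express, made up most of that sum and were not called, and Ly6c2 had 2 and 5 counts. The 6 mast cell markers summed to 2.93 to 10.2 and 2.81 to 8.94 CPM, mostly from Kit, while Cpa3 had 5 and 4 counts and Fcer1a was at 0 in every library. Of the globin symbols, Hba-a1, Hba-a2, Hbb-b1 and Hbb-b2 were at 0 in every library. Beta-s stood at 7.0 ± 5.14 and 16.9 ± 22.2 CPM (adjusted p = 0.18). How reads were assigned among globin symbols was not tested, and a count of 0 need not mean that the RNA was absent.

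**Figure D5:**
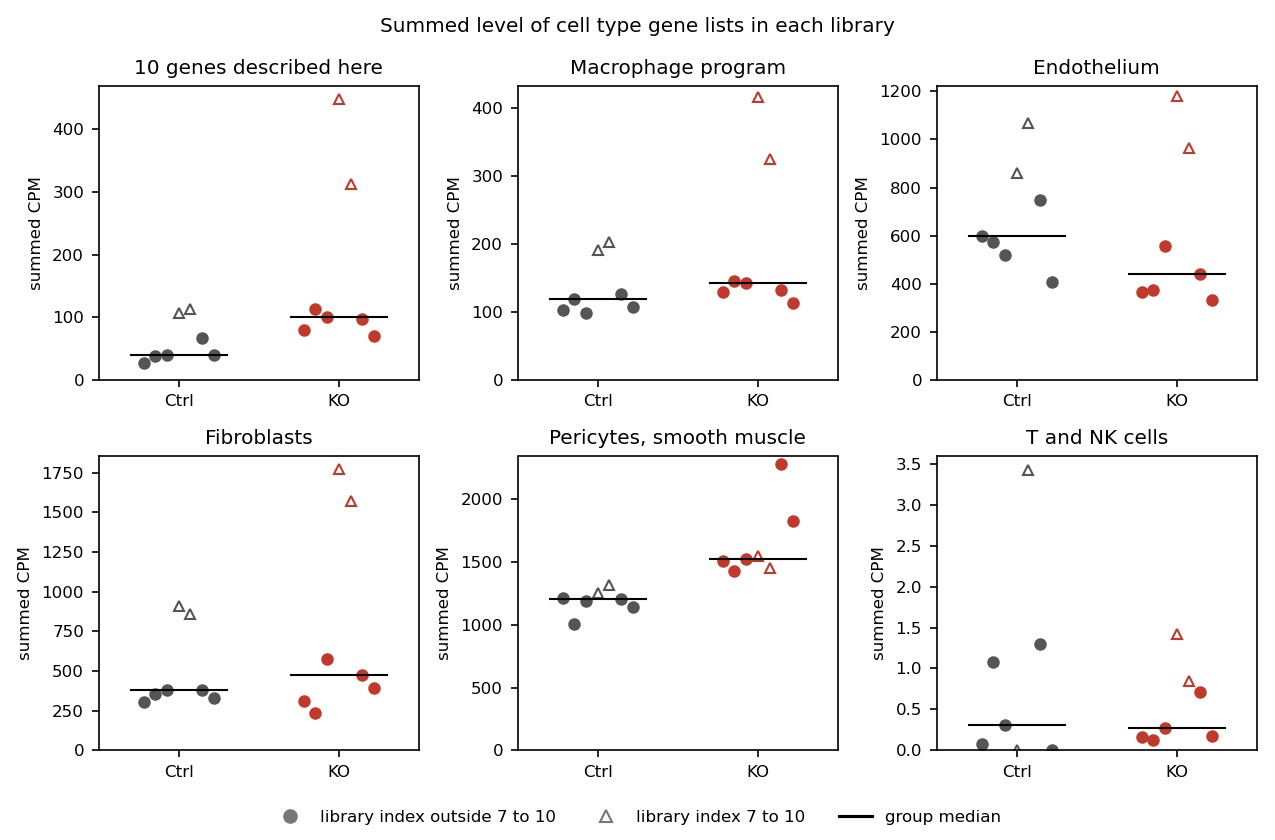
Summed CPM (vertical axes, from 0) of 6 gene lists in each Ctrl and KO library, with group medians as lines and open triangles for library indices 7 to 10. The 10 genes, the macrophage program, endothelium and fibroblasts are highest in the triangles in both groups, pericyte and smooth muscle genes in Ctrl but not in KO, and T and NK cell genes stay at or below 3.42 CPM.

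The genes whose pattern over the 14 libraries was most like the mean pattern of the 10 were Fcrls, Ptpn6, Adcy7, Lcp1 and Rnase4. Likeness was the root mean square difference in centred log2 CPM, which was 0.27, 0.29, 0.32, 0.33 and 0.34 for these genes, 0.23 to 0.47 for the 10 genes themselves, whose mean defines the pattern, and 1.02 at the median of the 11160 other genes tested. Fcrls is a receptor-like gene of mouse macrophages and microglia, Ptpn6 and Lcp1 are leukocyte signalling and cytoskeletal genes, Adcy7 is an adenylyl cyclase and Rnase4 a secreted ribonuclease. Fcrls ranged from 0.741 to 4.20 CPM in Ctrl (median 1.23) and from 1.42 to 13.9 CPM in KO libraries (median 3.18), with KO replicates 4 and 5 the highest. The pattern includes the difference between KO and Ctrl, so genes chosen for likeness to it were chosen in part for being higher in KO. Of the 5, Adcy7 was called higher (log2 1.18, adjusted p = 0.045), where 14.5% of all genes were. The remaining 4 were not called (log2 0.89 to 1.26, adjusted p = 0.085 to 0.13). Laptm5 (0.34) and F13a1 (0.36), both of the macrophage program list, came at ranks 6 and 7. The matrix genes Bgn (0.37) and Col8a1 (0.38) followed at ranks 8 and 9. All of these lay inside the range of the 10 genes themselves and were named here after their values were seen.

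The authors' deposited table of DESeq2 results called the same number of the 10 genes, 7, at an adjusted p under 0.05, among 3295 calls in 13515 genes with an adjusted p (12.4% called higher with DESeq2 here). In the authors' deposited table Lyz2 had a log2 fold change of 1.78 (adjusted p = 0.0033) and Csf1r one of 1.01 (adjusted p = 0.19).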

How the data were processed

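Messenger RNA of sorted cardiomyocytes was amplified with SMART-Seq v4 and made into libraries with Nextera XT, per the labels' protocols. STAR, featureCounts and DESeq2 and the build mm10 are named in the submitters' processing notes, without versions. The deposited table holds raw read counts per gene, with no normalization by the authors. A second deposited table holds the authors' comparison: a mean signal of normalized counts, log2 fold changes with errors, a test score, and p-values with their adjusted values.

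Counts were tested with edgeR 4.0.16 in R 4.3.3: genes with low counts were removed by filterByExpr, libraries were scaled by TMM, and KO was compared with Ctrl by the quasi-likelihood F test over 11170 genes, with Benjamini-Hochberg adjustment and calls at an adjusted p under 0.05. Standard errors are the size of the log2 fold change divided by the square root of F. CPM used TMM-scaled library sizes, and log2 CPM a prior count of 2. Exonic lengths and positions are those of the deposited count table (mm10). Exact permutation tests compared mean log2 CPM. The scripts were tested on simulated counts. Alternatives were DESeq2 1.42.0, other scalings, no filter or a stricter one (CPM of at least 1 in 7 libraries), a replicate block, a term for library indices 7 to 10, fits within those 4 and the other 10 libraries, and leaving out each library. The interaction with those indices was added after seeing the data. The replicate numbers were not taken as pairs, since the labels tie them to no shared animal or day and 1 of the 7 same-number correlations was under 0.1. The 10 genes and all gene lists were chosen with earlier results of these data known. By rule the text names the 10 genes, Ryr2, up to 4 tested genes of each list with the smallest p, those needed for a count of 5 or fewer, the defining marker of each other cell type, and the 5 genes nearest in pattern. Others were named for their role after their values were seen.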

Additional observations from a re-analysis of the deposited data

How the results depend on the processing

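All 10 genes stayed higher in KO libraries under each of the 23 alternatives run. Lyz2, Cd74, H2-Ab1 and H2-Eb1 kept their call in all 23 (edgeR and DESeq2 adjusted p at most 0.020, 0.0051, 0.020 and 0.042). C1qa gained a call under 9 alternatives, C1qc under 8 and Csf1r under 3, while Emr1 and C1qb each lost it under 7 and H2-Aa under 6. Of the 10 genes, 7 were called in the 14 libraries and 4 to 9 on leaving out 1 library, with 4 without Ctrl replicate 1, 2 or 7 or KO replicate 4 or 5. Of all genes, 3149 of 11170 tested were called in the 14 libraries. On leaving out 1 library 2743 to 3173 were called, with 11179 to 11292 tested. Scaling by library totals alone moved the median log2 fold change of all genes from 0.01 to 0.15 and the calls from 1621 higher and 1528 lower to 3064 higher and 852 lower, and the 10 genes then had log2 fold changes of 1.17 to 1.95.

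Within library indices 7 to 10, with 4 libraries, 1466 of 11798 genes tested were called in place of 3149 of 11170. Called there were 1 of 13 class II pathway genes tested and 7 of 17 complement genes, in place of 4 of 9 and 3 of 13. In the macrophage program 20 of 37 were called, and 5 of 16 growth factor and chemokine genes, in place of 5 of 20 and 1 of 6. Among the other 10 libraries 2 of 9 class II pathway and 8 of 13 macrophage program genes tested were called, and 2663 of 11044 genes in all. With a term for those indices 5 of 13 complement, 15 of 20 macrophage program and 9 of 16 class I genes were called, the last in place of 5. Of all 11170 genes 3652 were called in that fit. DESeq2 called 12 of 40 macrophage program genes tested, 3 of 21 growth factor and chemokine genes and 3295 of 13515 genes in all. With no filter these counts were 11 of 41, 3 of 25 and 2927 of 17091. Library totals alone called 2 of 6 growth factor and chemokine genes and 3916 of 11170 in all. On leaving out 1 library the macrophage program count ranged from 3 (without Ctrl replicate 1 or KO replicate 4) to 8 (without Ctrl replicate 4 or KO replicate 1). Growth factors and chemokines then ranged from 1 to 2 (without Ctrl replicate 3 or KO replicate 4). Class I ranged from 5 to 9 (9 without KO replicate 7 and 8 without KO replicate 3). When 1 library was left out, 2743 to 3173 genes were called in all. The number of genes tested differed between several of these fits, and the cause of the differences was not tested.

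The labels do not pair the replicate numbers, so a fit with them as a block is given only as an alternative and does not replace the main test. It called 10 of the 10 genes higher, where 1922 of 11170 genes were. C1qa, C1qc and Csf1r, which missed the threshold in the main test, were among them (edgeR adjusted p = 3.9e-04, 8.6e-04 and 0.0040). In all 3770 genes were called, with 7 of 13 complement, 15 of 20 macrophage program and 8 of 16 class I genes. Deviations of same-numbered libraries correlated at 0.061 to 0.53, and number 7 was the 1 number for which both libraries correlated best with each other. Depth limits the class II chains most, with as few as 3 reads of H2-Ab1 in a library.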

Other observations

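Ccr2 and Itgam, receptors of myeloid cells that were singled out after their values were seen, were too low to be tested. Both had more reads in KO libraries. Of the 6 monocyte markers only 2 could be tested. Of these, 0 were called higher and 0 lower, against 14.5% and 13.7% of all genes. Recruitment of cells was not tested. The chemokine receptor Ccr2 had 12 counts in all Ctrl libraries and 71 in all KO libraries, and ranged from 0 to 0.46 CPM in Ctrl and from 0.263 to 3.14 CPM in KO libraries. The integrin Itgam had 27 and 111 counts, with 0.0823 to 1.18 CPM in Ctrl and 0.474 to 5.86 CPM in KO libraries. Both ranges overlapped, and the ratio of KO to Ctrl means was 3.72 for Ccr2 and 2.95 for Itgam among the other 10 libraries.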
